A study of Mus musculus with 12 samples.

Results

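Immunoglobulin gene segments were detected in 12 libraries of D2A1 tumour cells sorted from mouse lung. Members were the rows of the expression table named as a heavy chain (Igh), kappa (Igk) or lambda (Igl) segment and chosen by their measured level, at least 1 TPM in at least 1 library, TPM being the RSEM estimate of a transcript's share of the RNA. Of 399 rows whose name fits, 95 reached that level. One of them, Ighmbp2, encodes a DNA and RNA helicase whose symbol merely begins with the same letters, and it was left out, which left 94 segments of 398. Because TPM chose the members, their number and levels are given as a description. Just inside the threshold were Igkv4-74 at 1.05 TPM and Ighv8-8 and Ighv9-2 at 1.03 TPM, and just outside were Ighv1-37 at 0.87 TPM and Ighv1-19-1 and Ighv1-59 at 0.84 TPM.

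D2A1 is a mouse mammary carcinoma line, here carrying a histone-GFP reporter that doxycycline switches on, and the cells were stained with the membrane dye CellVue Claret before injection into the tail vein. GFP-positive cells that had kept the dye gave the dormant libraries, and GFP-positive cells that had lost it gave the growing libraries. Hosts labelled Tgfbr2 KO lack the type II TGF-β receptor in myeloid cells, through floxed alleles and Cre driven by the Lysozyme 2 promoter, and hosts labelled WT are the controls. There were 3 libraries in each of 4 groups, called dormant KO and growing KO, dormant WT and growing WT. By the study's methods the hosts were female mice of 6 to 8 weeks, each library was made from 50 sorted cells, and lungs were taken 12 days after injection, whereas its results text gives 14 days. The column names place every WT library used here in batch 1 and every KO library in batch 2, so a difference between hosts and a difference between batches cannot be told apart. Columns named for WT hosts in batch 2 match no labelled sample and were not used. The study's text calls the libraries biological triplicates and names as many mice as libraries in each group, while the labels do not tie a library to a mouse. The p-values measure the spread between these libraries.

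An antibody is built from heavy and light chains, and each chain has a variable part made by joining V, D and J segments (V and J in light chains) and a constant part encoded by a C segment. B cells make this join during their development and mostly pass 1 functional heavy and 1 functional light chain on to their daughters. Cells of 1 clone thus share their V segments, but unrelated clones can use the same V segment too. The constant segment of the heavy chain sets the isotype: Ighm and Ighd are those of naive B cells, whereas Ighg1, Ighg2b, Ighg2c and Igha are used after class switching. Plasma cells make immunoglobulin mRNA in far greater amounts than resting B cells. In the mouse, kappa light chains are used much more often than lambda. Mammary carcinoma cells are not antibody-producing cells.

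The 94 segments comprised 83 V segments and 11 constant segments. By locus, 40 belonged to Igh on chromosome 12, 47 to Igk on chromosome 6 and 7 to Igl on chromosome 16. None of the 21 D and 14 J segments in the table was above 0 in any library, and none is a member. The annotation calls 9 of the V segments pseudogenes, among them Ighv4-2. The other two heavy chain constant segments in the table were listed at 0 in every library (Ighe) or in all but 1 (Ighg3, 0.05 TPM in growing KO library 3).

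RSEM divides reads among similar sequences by an estimate, so the level of a V segment with a close relative is less certain than the sum over its locus. The pairs shown here are the kappa V segments, and the lambda constant segments, whose partner in the same family stood highest in another group or beside them, and they were picked after their levels had been seen. Each line gives the last 120 bases of the V exon (framework 3 and the start of CDR3 as the germline encodes it), or 120 bases near the start of the lambda constant exon, 5′ to 3′ on the coding strand, from GENCODE M21 transcripts on GRCm38. Capitals mark the bases that differ from the partner on the neighbouring line. In order, the windows are at chr6:70406469-70406588 (minus strand), chr6:70260409-70260528 (minus), chr6:68050337-68050456 (plus), chr6:67942074-67942193 (minus), chr6:69764523-69764642 (minus), chr6:69814631-69814750 (minus), chr6:70518730-70518849 (plus), chr6:70698948-70699067 (plus), chr16:19198733-19198852 (minus) and chr16:19065562-19065681 (minus).
Igkv6-15: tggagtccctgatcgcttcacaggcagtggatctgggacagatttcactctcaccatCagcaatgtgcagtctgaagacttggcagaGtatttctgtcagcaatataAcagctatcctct
Igkv6-23: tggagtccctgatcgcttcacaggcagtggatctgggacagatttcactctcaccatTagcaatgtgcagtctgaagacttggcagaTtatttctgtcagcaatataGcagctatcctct
Igkv9-120: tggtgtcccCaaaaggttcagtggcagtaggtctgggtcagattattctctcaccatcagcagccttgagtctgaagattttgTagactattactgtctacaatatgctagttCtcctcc
Igkv9-124: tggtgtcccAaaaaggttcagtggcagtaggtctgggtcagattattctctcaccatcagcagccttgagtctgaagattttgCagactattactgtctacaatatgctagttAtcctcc
Igkv12-46: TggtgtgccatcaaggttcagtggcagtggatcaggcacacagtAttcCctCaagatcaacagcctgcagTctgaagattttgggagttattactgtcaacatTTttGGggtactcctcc
Igkv12-44: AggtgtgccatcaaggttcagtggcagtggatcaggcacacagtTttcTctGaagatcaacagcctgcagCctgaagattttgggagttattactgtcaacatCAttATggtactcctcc
Igkv3-12: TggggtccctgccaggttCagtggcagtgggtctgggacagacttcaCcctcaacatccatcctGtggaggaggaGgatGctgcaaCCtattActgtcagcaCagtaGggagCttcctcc
Igkv3-2: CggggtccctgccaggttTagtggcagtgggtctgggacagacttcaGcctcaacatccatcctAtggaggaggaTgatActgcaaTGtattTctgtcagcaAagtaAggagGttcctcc
Iglc2: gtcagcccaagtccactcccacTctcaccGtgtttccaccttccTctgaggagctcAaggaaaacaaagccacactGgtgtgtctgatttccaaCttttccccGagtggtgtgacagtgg
Iglc3: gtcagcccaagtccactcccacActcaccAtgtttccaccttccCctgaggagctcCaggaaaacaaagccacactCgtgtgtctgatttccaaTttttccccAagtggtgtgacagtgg
Within these windows Igkv6-15 and Igkv6-23 differ at 3 bases, Igkv9-120 and Igkv9-124 at 3, Igkv12-46 and Igkv12-44 at 9, Igkv3-12 and Igkv3-2 at 12, and Iglc2 and Iglc3 at 7. Over the aligned exon the identity is 94.6% for Igkv6-15 and Igkv6-23, 96.0% for Igkv9-120 and Igkv9-124, 94.6% for Igkv12-46 and Igkv12-44, 87.7% for Igkv3-12 and Igkv3-2 and 96.5% for Iglc2 and Iglc3.

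A further heavy and light chain segment are shown because they are known as the pair used by many B-1 cells that make IgM against phosphatidylcholine, a lipid of cell membranes. Their windows lie at chr12:114048241-114048360 (minus strand) and chr6:67896523-67896642 (plus strand), in lower case since no partner is set beside them.
Ighv11-2: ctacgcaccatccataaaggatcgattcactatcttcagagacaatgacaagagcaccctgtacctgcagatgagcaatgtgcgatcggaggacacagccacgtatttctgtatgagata
Igkv14-126: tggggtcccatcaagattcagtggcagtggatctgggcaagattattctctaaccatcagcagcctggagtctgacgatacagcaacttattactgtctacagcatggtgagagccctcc
The nearest detected relative of Ighv11-2 is Ighv11-1, at 98.7% identity, and that of Igkv14-126 is Igkv11-125, at 80.5%. Among the 24 V segments present in all 3 libraries of dormant KO or of growing KO, the nearest detected relative had a median identity of 94.6%, was over 90% identical for 17 segments and over 95% for 9.

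Immunoglobulin RNA was most abundant in dormant KO libraries. The 94 segments together stood at 2175, 2185 and 2160 TPM in dormant KO (2173 ± 12.7, SD, n = 3) and at 659, 789 and 781 TPM in growing KO (743 ± 72.6, SD, n = 3). Growing WT libraries had 79.9, 75.3 and 87.0 TPM (80.7 ± 5.92, SD, n = 3), and dormant WT libraries had 43.6, 243 and 92.3 TPM. Every KO library was above every WT library, dormant KO was above growing KO with no overlap, and the dormant WT libraries spread around the growing WT ones. The sums make up 0.217%, 0.218% and 0.216% of all TPM in the dormant KO libraries. In bulk RNA, more cells of a type and more RNA per cell cannot be told apart. A sum over segments chosen by their level is a description and carries no test.

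The kappa locus held most of this RNA. Its sum was 1662, 1547 and 1665 TPM in dormant KO, 501, 644 and 533 TPM in growing KO, 48.9, 39.8 and 43.3 TPM in growing WT, and 1.15, 190 and 11.6 TPM in dormant WT. Kappa thus made up a mean of 74.8% of the immunoglobulin TPM in dormant KO, 75.3% in growing KO and 54.6% in growing WT, while in dormant WT it ranged from 2.64% to 78%. The lambda sum was 407, 434 and 351 TPM in dormant KO, 69.3, 76.8 and 112 TPM in growing KO, 15.9, 16.8 and 9.33 TPM in growing WT, and 0.25, 0 and 0 TPM in dormant WT. Dormant WT is the only group in which lambda is listed at or near 0 in each library. The heavy chain sum differed least between groups: 105, 204 and 143 TPM in dormant KO, 89.3, 68.5 and 136 TPM in growing KO, 15, 18.6 and 34.4 TPM in growing WT, and 42.2, 53.4 and 80.7 TPM in dormant WT. The 3 dormant WT libraries lay above the 3 growing WT ones at this locus, and below them at lambda.

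**Figure D1:**
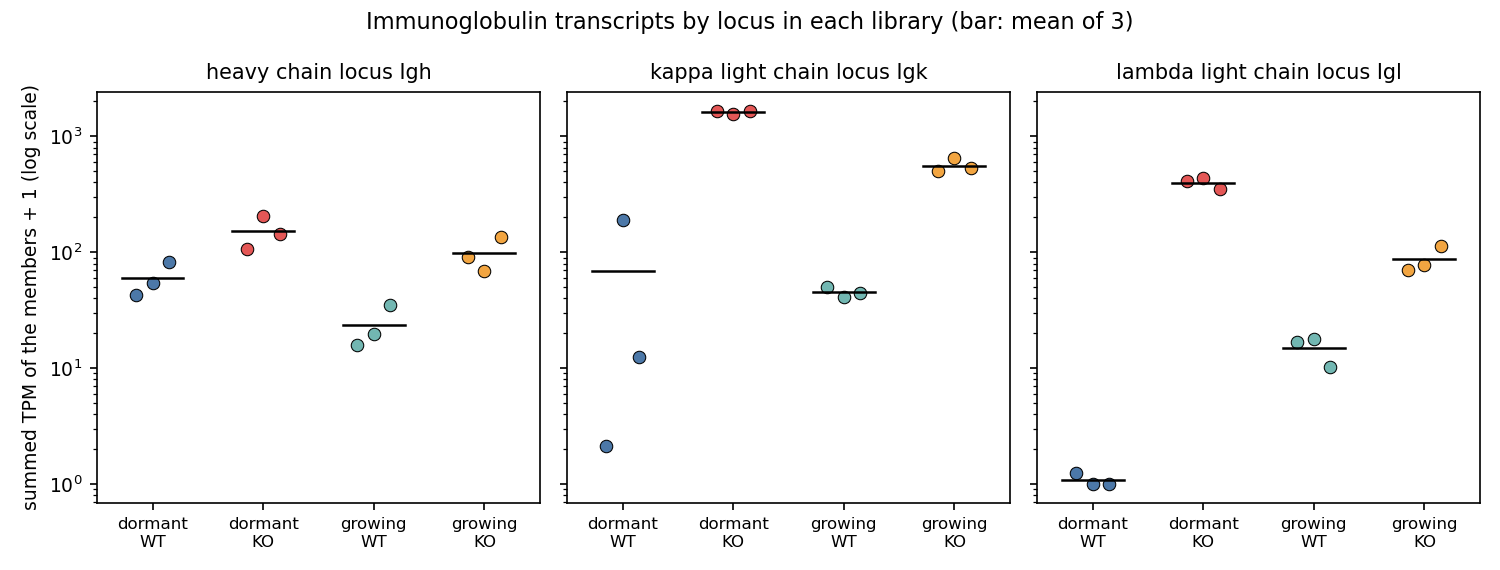
Summed TPM of the member segments plus 1 (log scale) for the heavy chain, kappa and lambda loci in each of the 12 libraries, with points for libraries and a bar for the mean of 3. Dormant KO libraries are highest at kappa (1547 to 1665 TPM) and lambda (351 to 434 TPM), and dormant WT libraries spread from 1.15 to 190 TPM at kappa.

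The number of segments at 1 TPM or more per library set the hosts apart, while the order of the KO states depended on the minimum. Dormant KO libraries held 26, 31 and 30 segments and growing KO libraries 29, 35 and 32, against 13, 12 and 17 in growing WT and 8, 8 and 6 in dormant WT. At 5 TPM or more, dormant KO held 23, 27 and 24 segments and growing KO 17, 17 and 21, with no overlap, and at 0.1 TPM or more the order was the other way, at 26, 34 and 34 in dormant KO and 37, 37 and 38 in growing KO. Many segments were rare: 46 of 94 reached 1 TPM in 1 library only. By group, 21 segments reached 1 TPM only in growing KO, 14 only in dormant KO, 14 only in dormant WT and 10 only in growing WT, and 35 did so in more than 1 group. Of the 14 seen only in dormant WT, all 14 came from a single library each, whereas 5 of the 14 seen only in dormant KO were in all 3 of its libraries. The number of reads behind a TPM value is unknown, so whether a missing segment was beyond detection cannot be said.

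For the tests between groups, genes at 1 TPM or more in at least 3 of the 12 libraries were used, which 13002 genes and 38 of the 94 segments passed (12 Igh, 20 Igk, 6 Igl). Of these 38, 29 would not have passed without 1 of the groups, and 8 reached 1 TPM in 1 group alone. A segment that passed only through the group where it is high was in effect selected to differ, so for those 29 a call, its p-value and its holding when a library was left out are a description, as are all counts of called segments. The account of the 8 rests on their levels. Values were compared as log2(TPM + 1) with limma, with the Benjamini-Hochberg adjustment over all 13002 genes. A gene was called at an adjusted p of at most 0.05 and a difference of at least 1 on that scale. Where a group is listed at 0 throughout, the size of the difference depends on the added 1, so the TPM of each library is given and no fold is drawn from the difference. Between dormant KO and dormant WT, 24 of the 38 segments were higher and 0 lower, where 12.9% of all genes tested were higher and 9.39% lower. Between growing KO and growing WT, 9 were higher and 0 lower, against 0.715% and 0.261% of all genes. Between the states in KO hosts, 15 were higher in dormant libraries and 11 lower, against 8.31% and 9.48%. In WT hosts 0 were higher and 3 lower, against 1.85% and 5.67%. Averaged over both hosts, 10 were higher in dormant libraries and 11 lower, against 6.99% and 12.6%. The interaction asks whether the gap between states differs between hosts (KO gap less WT gap) and was called for 13 segments on the higher side and 8 on the lower, against 6.18% and 3.91% of all genes. The balance of all calls depends on the scaling: of genes called between dormant hosts 57.9% were higher in KO, and 74.1% after median-ratio scaling, and of genes called between states in KO hosts 46.7% were higher in dormant libraries, and 69.3% after that scaling (averaged over hosts 35.7% and 56.2%, interaction 61.2% and 79.2%). Quantile normalization moved that share from 24.6% to 50.6% in WT hosts, from 46.7% to 56.9% in KO hosts and from 35.7% to 53.9% over both. No called segment turned direction under either, although some lost the call.

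**Figure D2:**
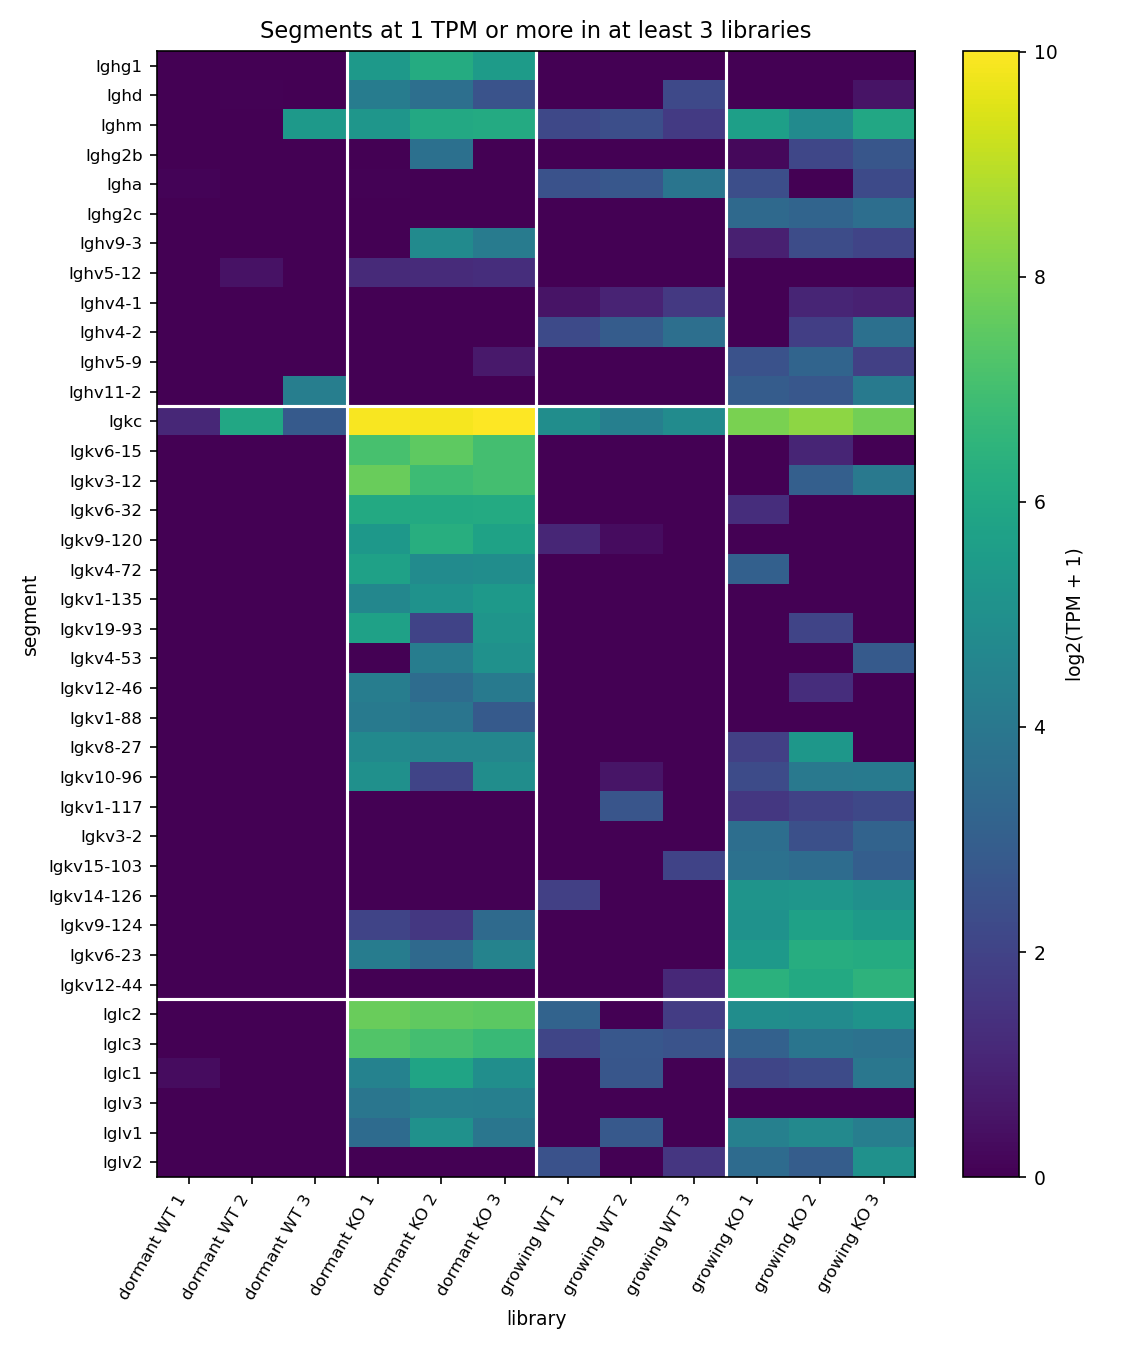
Level of the 38 segments at 1 TPM or more in at least 3 libraries (rows, by locus, constant segments first) in the 12 libraries (columns), as log2(TPM + 1) from dark (0) to bright. The dormant KO and growing KO columns each show a block of kappa V segments that repeats across the 3 libraries, with few rows bright in both groups, and the dormant WT columns are dark at nearly every V segment.

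Among the light chain constant segments, Igkc, the single kappa constant region, was the most abundant member. It stood at 956, 928 and 1028 TPM in dormant KO, 253, 312 and 234 TPM in growing KO, 29.0, 18.9 and 27.8 TPM in growing WT, and 1.15, 62.6 and 6.11 TPM in dormant WT. The KO groups did not overlap each other or either WT group, and 1 dormant WT library lay above all growing WT libraries. The difference between dormant KO and dormant WT was 6.61 ± 0.89 (SE) on the log2(TPM + 1) scale (limma adjusted p = 0.000243) and was called. That between growing KO and growing WT was 3.36 ± 0.89 (limma adjusted p = 0.151), and that between dormant and growing KO was 1.87 ± 0.89 (adjusted p = 0.179), and neither passed. These tests share 1 spread over all groups, to which the wide dormant WT libraries contribute. In a fit of the 2 KO groups alone the state difference of Igkc had an adjusted p of 0.000434, and with a weight per library 0.00634.

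Of the lambda constant segments, Iglc2 and Iglc3 were called between states in KO hosts, and Iglc1 was not. Iglc2 stood at 209, 187 and 179 TPM in dormant KO, 28.7, 27.6 and 34.0 TPM in growing KO, 7.98, 0 and 2.39 TPM in growing WT, and was listed at 0 in each dormant WT library. Iglc3, its near copy, stood at 154, 129 and 110 TPM in dormant KO, 7.72, 13.7 and 12.5 TPM in growing KO, 3.24, 5.52 and 4.97 TPM in growing WT, and at 0 in dormant WT. The 4 groups did not overlap in Iglc3. The difference between dormant and growing KO was 3.44 ± 0.45 (SE) for Iglc3 (limma adjusted p = 0.000293) and 2.63 ± 0.67 for Iglc2 (adjusted p = 0.017). Iglc3 was lower in dormant than in growing WT (adjusted p = 0.00756), a call lost with a replicate block, with array weights and with a pseudocount of 5, and its interaction was called (adjusted p = 0.000256). The Iglc2 difference between growing KO and growing WT (3.31 ± 0.67, adjusted p = 0.0418) was lost when any of 5 of the 6 libraries was left out, and its state difference in KO hosts when any of 3 of 6 was. Iglc1 stood at 20.5, 57 and 29.4 TPM in dormant KO, 3.23, 3.87 and 14.7 TPM in growing KO, 0, 5.47 and 0 TPM in growing WT, and 0.25, 0 and 0 TPM in dormant WT. Between dormant hosts it was higher in KO (adjusted p = 0.000923), and its state difference in KO hosts (2.29 ± 0.81) did not pass (adjusted p = 0.0725). Iglc4 was seen in 1 library, dormant KO 2, at 8.98 TPM.

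Heavy chain isotypes split the KO groups. Ighg1 stood at 41.9, 69.7 and 43.9 TPM in dormant KO and was listed at 0 in the other 9 libraries. Ighg2c, by contrast, stood at 9.82, 8.36 and 11.2 TPM in growing KO and was listed at 0 in the other 9. Each of these IgG segments was thus seen in every library of 1 KO group and in none of the other. Both entered the tests only through that group, so no test of theirs is used here. Ighg2b was at 12 TPM in dormant KO library 2 and 0 in the other two, and at 0.15, 3.37 and 5.32 TPM in growing KO, so its levels overlapped and no contrast was called. The reference carries Ighg2c, the form of C57BL/6 mice. Other strains have Ighg2a at this place, and the strain of the hosts is not given in the sources used here.

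The unswitched isotypes did not follow the same order. Ighm, which encodes the IgM heavy chain, stood at 36.8, 64.4 and 68.9 TPM in dormant KO, 49.7, 26.5 and 63.4 TPM in growing KO, 3.52, 4.31 and 2.28 TPM in growing WT, and 0, 0 and 40.9 TPM in dormant WT. The KO groups overlapped (difference 0.31 ± 1.17, adjusted p = 0.893), and the third dormant WT library lay within their range. Ighm was called between dormant KO and dormant WT (4.0 ± 1.17, limma adjusted p = 0.0272), but the call held in only 1 of 6 fits that left out a library. Between growing KO and growing WT the levels did not overlap, and the difference of 3.38 ± 1.17 did not pass (adjusted p = 0.377). Ighd, the IgD constant region that accompanies IgM on mature naive B cells, stood at 17.3, 11.7 and 4.86 TPM in dormant KO, 0, 0 and 0.44 TPM in growing KO, 0, 0 and 3.60 TPM in growing WT, and 0, 0.04 and 0 TPM in dormant WT. It was higher in dormant KO than in growing KO (3.29 ± 0.62, adjusted p = 0.00296) and than in dormant WT (adjusted p = 0.00177), but it passed the filter only through dormant KO, so these values describe it. Igha, the IgA heavy chain of mucosal plasma cells, was highest in growing WT at 4.74, 5.58 and 13.8 TPM, against 4.30, 0 and 3.75 TPM in growing KO, with 0.07 TPM or less in every dormant library. Its difference between dormant and growing WT was called (adjusted p = 0.0133), but it passed the filter only through growing WT, and the call was lost without growing WT library 3. The interaction was called for Ighd (adjusted p = 0.0132) and not for Ighm (0.884) or Igha (0.367).

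**Figure D3:**
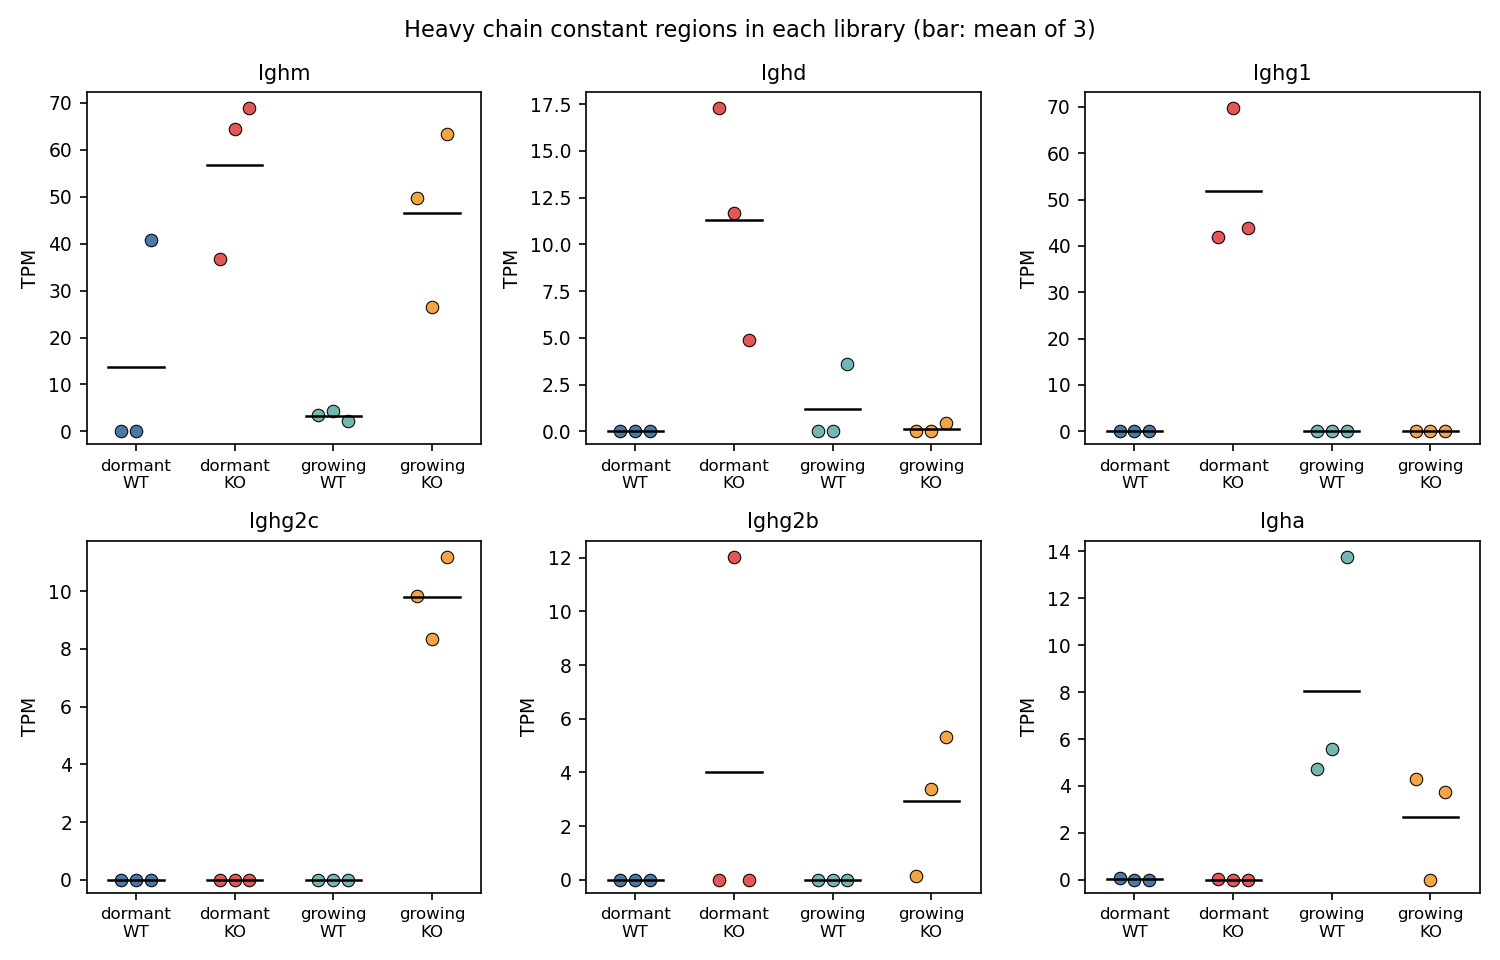
TPM of the 6 heavy chain constant segments that are members in each library, on a linear axis, with points for libraries and a bar for the mean of 3. Ighg1 (41.9 to 69.7 TPM) appears only in dormant KO and Ighg2c (8.36 to 11.2 TPM) only in growing KO, while Ighm overlaps between them.

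The kappa V segments highest in dormant KO were not those highest in growing KO, although many were seen in both. Of 13 kappa V segments at 1 TPM or more in all 3 dormant KO libraries, 10 reached that level in at least 1 growing KO library. Of 8 in all 3 growing KO libraries, 3 reached it in at least 1 dormant KO library. The share of other genes was not computed for these kappa sets. Among V segments of any locus with a mean of at least 5 TPM in dormant KO, 72.2% were seen in growing KO, against 93.4% of other genes in that range. From growing KO to dormant KO the shares were 46.2% and 96.2%. Igkv3-12 stood at 208, 116 and 128 TPM in dormant KO, against 0, 7.24 and 15.3 TPM in growing KO, and was listed at 0 in all WT libraries. Igkv6-15 stood at 134, 185 and 129 TPM in dormant KO, with 1.03 TPM in 1 growing KO library, with 0 in all others. Igkv6-32 stood at 67.1, 66.9 and 69.0 TPM in dormant KO, and its only other value was 1.46 TPM in growing KO library 1. These 3 V segments led dormant KO with no overlap with any other group. Their differences between dormant and growing KO were 4.84 ± 0.85 for Igkv3-12 (limma adjusted p = 0.00195), 6.87 ± 0.47 for Igkv6-15 (3.62e-06) and 5.67 ± 0.46 for Igkv6-32 (1.45e-05), all 3 having passed the filter only through dormant KO. Igkv9-120 at 39.4, 76.5 and 53.8 TPM and Igkv1-135 at 23.8, 33.2 and 40.8 TPM in dormant KO were listed at 0 in growing KO.

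A further set was high in growing KO. Igkv12-44 stood at 83.9, 66.3 and 87.7 TPM in growing KO, at 0 in dormant KO and dormant WT, and at 1.22 TPM in growing WT library 3. Igkv14-126 stood at 35.5, 37.5 and 31.7 TPM in growing KO, and its only other value was 2.76 TPM in growing WT library 1. Igkv15-103 stood at 12.1, 10.7 and 6.95 TPM in growing KO, against 0 in dormant KO and 3.04 TPM in growing WT library 3. All 3 were lower in dormant than in growing KO (limma adjusted p = 5.55e-06, 5.95e-05 and 0.000804), having passed the filter only through growing KO, and Igkv12-44 was also called between growing KO and growing WT (5.93, adjusted p = 0.000122). The growing host difference of Igkv14-126 was called as well (4.53, adjusted p = 0.00161), while that of Igkv15-103 (2.75, adjusted p = 0.0283) held in only 1 of 6 fits that left out a library.

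The pairs of related kappa V segments were picked for levels that differ between the KO groups, so the order within a pair is a description. Igkv6-23, which differs from Igkv6-15 at 16 of 298 bases, stood at 40.6, 73.4 and 71.3 TPM in growing KO, with 17.4, 9.62 and 21.4 TPM in dormant KO. Igkv9-124, the partner of Igkv9-120, stood at 33.2, 51.7 and 43.1 TPM in growing KO, with 3.18, 2.08 and 9.88 TPM in dormant KO. Neither was above 0 in a WT library, and the KO groups did not overlap in either. Both were called between growing KO and growing WT (Igkv6-23 adjusted p = 0.000195, Igkv9-124 adjusted p = 0.000547). The state difference in KO hosts was -3.05 ± 0.54 for Igkv9-124 (adjusted p = 0.00194) and -1.89 ± 0.50 for Igkv6-23 (adjusted p = 0.0193), and the latter was lost without any of 3 of 6 libraries and under median-ratio or quantile scaling. Igkv12-46 stood at 18.1, 10.5 and 16.6 TPM in dormant KO, with 0, 1.5 and 0 TPM in growing KO, opposite to Igkv12-44. Igkv3-2 stood at 11.2, 4.46 and 8.0 TPM in growing KO, with 0 in the other 9 libraries, and Igkv3-12 was also present in 2 of those growing KO libraries. How far reads of one relative were assigned to the other was not tested.

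**Figure D4:**
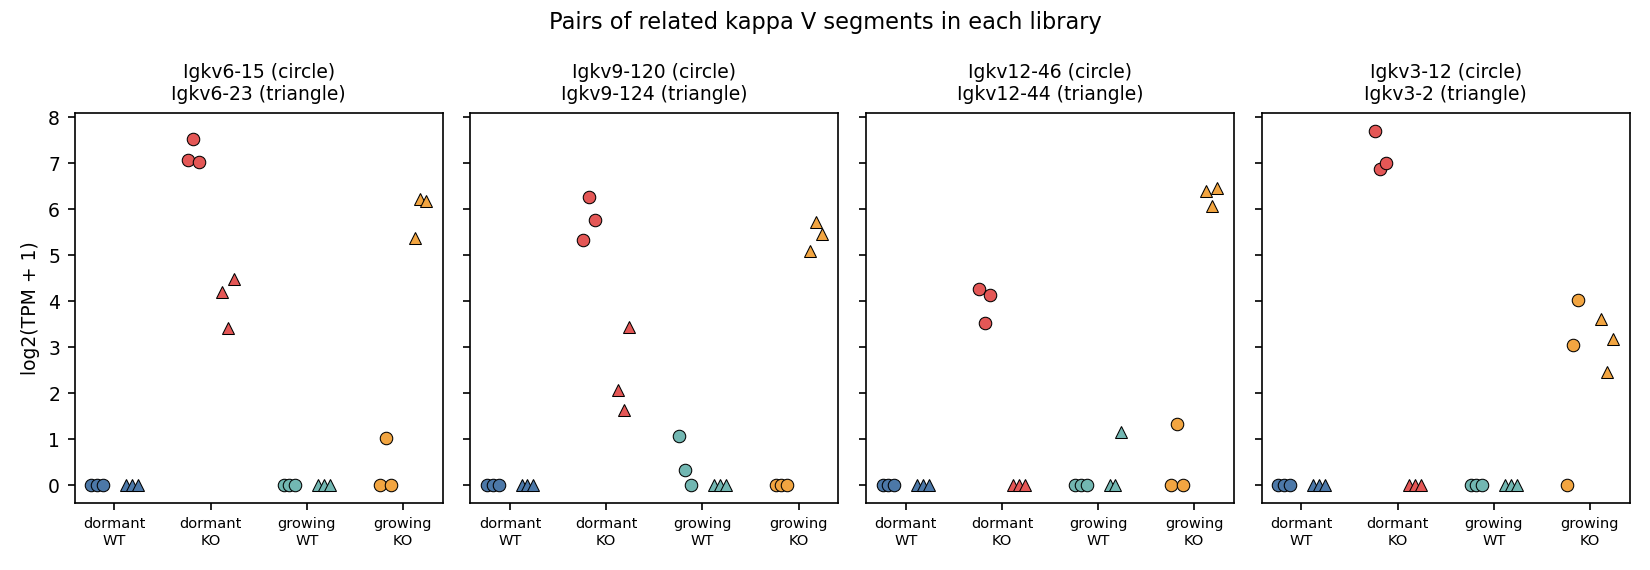
Level, as log2(TPM + 1), of 4 pairs of related kappa V segments in each library, with the first of each pair as circles and the second as triangles. In dormant KO the circles stand above the triangles in all 4 pairs, and in growing KO the triangles stand above the circles in the pairs led by Igkv6-15, Igkv9-120 and Igkv12-46.

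Heavy chain V segments summed to 9.24 to 45.7 TPM in dormant KO, where kappa V segments summed to 620 to 706 TPM. In growing KO the sums were 25.35 to 51.6 TPM (heavy chain) and 248 to 332 TPM (kappa). In growing WT they were 6.73 to 14.7 and 15.5 to 20.9 TPM. The order did not hold in dormant WT, at 39.8 to 53.4 TPM (heavy chain) and 0 to 127 TPM (kappa). Ighv9-3 stood at 0, 26.9 and 16.9 TPM in dormant KO, with 0.84, 3.95 and 3.15 TPM in growing KO. Ighv5-12 was the only Igh V segment at 1 TPM or more in all 3 dormant KO libraries, at 1.27, 1.32 and 1.51 TPM. Ighv4-2, annotated as a pseudogene, was the only V segment of any locus in all 3 growing WT libraries, at 3.75, 6.53 and 11.6 TPM, and stood at 0, 2.63 and 12.1 TPM in growing KO. In growing KO, Ighv5-9 (4.69, 8.23 and 2.75 TPM) and Ighv11-2 were the Igh V segments at 1 TPM or more in all 3 libraries. Ighv9-3 was called between dormant hosts (limma adjusted p = 0.0477) and Ighv4-2 between states in WT hosts (limma adjusted p = 0.0354). With libraries removed in turn, each call survived in 1 of 6 fits. Ighv4-2 passed the filter only through growing WT. Ighv9-3 would have failed it without dormant KO, and also without growing KO, so both calls are a description. Ighv11-2 stood at 6.50, 5.51 and 16.6 TPM in growing KO, with 18.2 TPM in dormant WT library 3, with 0 in the rest. Ighv11-2 and its known light chain partner Igkv14-126 were thus both present in all 3 growing KO libraries and listed at 0 in the dormant KO ones. The state difference of Ighv11-2 in KO hosts was -3.25 ± 0.94 (limma adjusted p = 0.032). None of 6 fits with a library removed kept this call. Ighv11-2 passed the filter only through growing KO, so its call too is a description.

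Lambda has 3 V segments in the table, and all 3 are members. Iglv1 stood at 10.2, 32.6 and 14.2 TPM in dormant KO, with 19.3, 24.9 and 18.6 TPM in growing KO, and was seen in 1 growing WT library (5.85 TPM). Iglv3 stood at 14.1, 19.3 and 18.9 TPM in dormant KO and was listed at 0 elsewhere. Iglv2 stood at 10.3, 6.73 and 32.4 TPM in growing KO, with 4.72, 0 and 1.97 TPM in growing WT, and was listed at 0 in every dormant library. Iglv1 overlapped between the KO groups (adjusted p = 0.844), while Iglv3 was seen only in dormant KO and Iglv2 only in growing libraries. The state difference in KO hosts was called for Iglv2 (limma adjusted p = 0.0019), which passed the filter only through growing KO.

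Libraries of 1 KO group shared their V segments to a degree that libraries of WT hosts did not. Of V segments at 1 TPM or more in either of a pair of libraries, 66.7% to 70.8% were in both for dormant KO, 35.1% to 48.6% for growing KO, 11.8% to 15.4% for growing WT and 0% for dormant WT. Between dormant KO and growing KO libraries the share was 13.2% to 25.0%. Pairs from the same KO group therefore lay above every pair from different groups. In all, 16 V segments were in each of the 3 dormant KO libraries and 12 in each of the 3 growing KO libraries, and 4 of these (Igkv10-96, Igkv6-23, Igkv9-124 and Iglv1) were in both sets, 25% of the first and 33.3% of the second. Of V segments at 1 TPM or more in any library of the group, 14 of the 28 of dormant KO (50%) were also seen in growing KO, against 78.4% of other genes in the same range of mean TPM. Of the 44 of growing KO, those 14 are 31.8%, against 83.8% of other genes. The 18 V segments seen in dormant WT were each in 1 library only.

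These shares move with level, so V segments were set beside other genes of like level. Among V segments with a mean of at least 5 TPM in their group, 15 of 18 (83.3%) were at 1 TPM or more in all 3 dormant KO libraries, and 88.8% of the other genes in the same range of mean TPM were. In growing KO the figures were 11 of 13 (84.6%) and 94.7%. In dormant WT they were 0 of 6 and 22.9%, and in growing WT 1 of 2 (50%) and 93.4%. With no minimum mean, the share of V segments in all 3 libraries was 57.1% in dormant KO (54.9% of other genes), 27.3% in growing KO (59.5%), 4.76% in growing WT (43.6%) and 0% in dormant WT (12.5%). Between the KO groups, 13 of 18 V segments (72.2%) with a mean of at least 5 TPM in dormant KO were seen in growing KO, against 93.4% of other genes in that range, and 6 of 13 (46.2%) of those of growing KO were seen in dormant KO, against 96.2%. Whether the 3 libraries of a KO group share mice, cells or RNA was not tested.

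**Figure D5:**
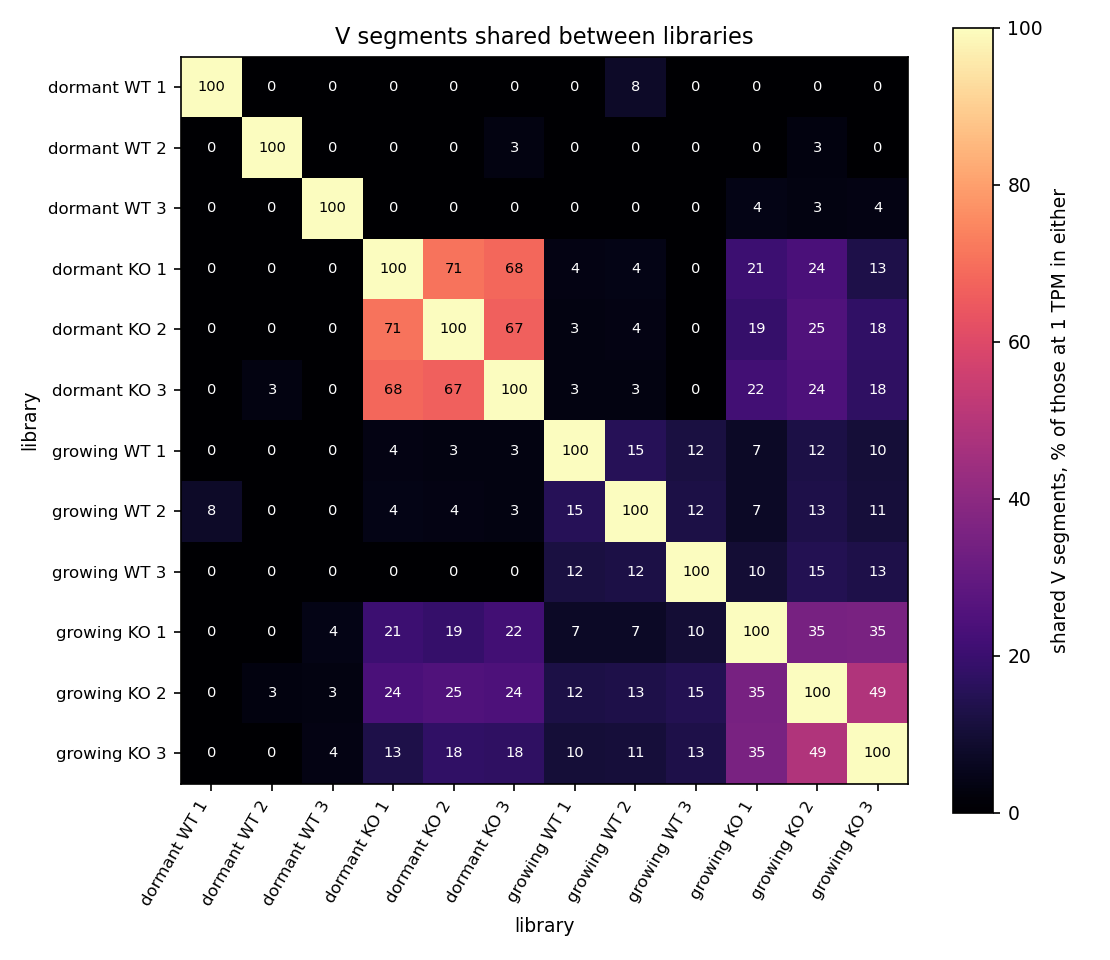
V segments shared by each pair of the 12 libraries, as a percentage of those at 1 TPM or more in either, with the rounded percentage written in each cell. The dormant KO block reaches 66.7% to 70.8% and the growing KO block 35.1% to 48.6%, while the dormant WT libraries share none with each other.

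In dormant WT the most abundant V segments belonged to single libraries. Library 2 held Ighv6-4 at 53.0 TPM, Igkv4-58 at 49.4 TPM and Igkv11-114, annotated as a pseudogene, at 45.4 TPM. Library 1 held Ighv15-2 at 24.6 TPM and no kappa V segment at all, and library 3 held Ighv5-10, a pseudogene, at 20.4 TPM. Ighv6-4 alone made up 99.2% of the heavy chain V TPM of its library. The constant segments were sparse in the same libraries: 1, 1 and 2 of them reached 1 TPM, against 5, 5 and 6 in the growing WT libraries, 7, 9 and 7 in dormant KO and 7, 7 and 8 in growing KO. The heavy chain V segments stood at 42.1, 53.4 and 39.8 TPM in the 3 libraries, beside heavy chain constant sums of 0.07, 0.04 and 40.9 TPM. V RNA with almost no constant RNA of its locus was thus measured in libraries 1 and 2 but not in library 3. Of all immunoglobulin TPM, the constant segments took 1456 ± 17.8 TPM of 2173 in dormant KO and 377 ± 19.8 TPM of 743 in growing KO (SD, n = 3).

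Several genes of B cells other than the segments were also highest in dormant KO. Of 14 tested genes of a B cell list, 10 were called higher and 0 lower in dormant KO when set against dormant WT (12.9% and 9.39% of all genes), with a median difference of 3.32 against 0.17 over all genes. Of the 14, 6 passed the filter only through 1 group, and all 6 were among the calls, so the count is a description. Of the other 8, 4 were called higher and 0 lower. Cd79a, a signalling chain of the B cell receptor, stood at 33.4, 28.7 and 20.4 TPM in dormant KO, with 0 in dormant WT, and Cd79b, its partner chain, at 105, 24.2 and 75.0 TPM and at 0. The list's whole sum nevertheless overlapped, at 276 to 300 TPM in dormant KO, with 119 to 328 TPM in dormant WT, where Cd72 alone gave 85.0 to 239 TPM. Between growing hosts 0 of the 14 were called (median difference 0.12 against 0.02). Between dormant and growing KO 9 were higher and 0 lower (8.31% and 9.48% of all genes). Of those 9, 5 had passed the filter only through 1 group, so this count too is a description. Of the other 8 tested, 4 were higher and 0 lower. Cd79a stood at 4.28, 8.71 and 2.76 TPM in growing KO, with 6.80, 2.90 and 7.47 TPM in growing WT. In the growing libraries Cd79a thus overlapped between hosts, whereas Igkc did not. Pax5, a factor that fixes B cell identity, was above 1 TPM in only 1 library (dormant KO 1, 1.42 TPM).

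Of genes of antibody secretion, Jchain and Mzb1 were highest in dormant KO, while the sum over the plasma cell list was not, at 300 to 394 TPM in dormant KO, 514 to 584 TPM in growing KO, 473 to 508 TPM in growing WT and 271 to 419 TPM in dormant WT. Jchain, which links IgM and IgA units, stood at 44.6, 90.8 and 76.5 TPM in dormant KO, 5.34, 28.7 and 17.5 TPM in growing KO, 1.42, 0 and 0 TPM in growing WT, and 0, 4.55 and 0 TPM in dormant WT. Its difference between growing KO and growing WT was 3.5 ± 0.82 (limma adjusted p = 0.0886) and did not pass. Mzb1, a chaperone of immunoglobulin assembly, stood at 27.7, 34.2 and 35.3 TPM in dormant KO, 9.04, 1.55 and 0 TPM in growing KO, 2.26, 0 and 0 TPM in growing WT and 0 in dormant WT. Jchain and Mzb1 were called between dormant hosts, and with them 4 of 11 tested plasma cell genes were higher and 0 lower (12.9% and 9.39% of all genes). Between growing hosts 0 of the 11 were called (0.715% and 0.261% of all genes). Between dormant and growing KO 2 were higher and 2 lower (8.31% and 9.48% of all genes). Between dormant hosts and between KO states alike, 1 of the 4 called genes had passed the filter only through 1 group. Xbp1, a driver of secretory capacity that many cells use, overlapped between all groups, at 34.5 to 77.3 TPM in dormant KO, with 59.4 to 124 TPM in growing KO. Sdc1 and Prdm1, also on the plasma cell list, stood at 8.83 and 0.33 TPM or less in dormant KO. Their growing KO levels were higher, at 27.2 TPM or more and 2.87 TPM or more. Neither difference passed (limma adjusted p = 0.0701 and 0.0709). Which cells carried the RNA of the plasma cell list was not tested. Rag1, Rag2 and Dntt, which act in the joining of V, D and J segments, were listed at 0 in all 12 libraries. Of the recombination and class switch list 3 genes were tested. Between dormant and growing WT 0 were higher and 1 lower (1.85% and 5.67% of all genes). Between hosts in either state and between states in KO hosts 0 were called, where the shares of all genes are those given above.

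Receptors that bind immunoglobulin did not keep the order of the segments. Their sum stood at 865 to 1101 TPM in dormant KO and 522 to 761 TPM in dormant WT, above 91.6 to 114 TPM in growing KO and 46.5 to 63.6 TPM in growing WT. Fcmr, the receptor for IgM carried by B cells, stood at 18, 35.9 and 6.54 TPM in dormant KO, with 0 in dormant WT and growing KO. It passed the filter only through dormant KO and was the 1 receptor of 8 tested (12.5%) that was called between dormant hosts, where 12.9% of all genes were higher. Between dormant and growing WT 3 of 8 were higher and 0 lower (1.85% and 5.67% of all genes). These were Fcer1g, the signalling chain shared by several Fc receptors, Fcgr2b and Fcgr3, higher by 6.62, 6.13 and 3.97 on the log2(TPM + 1) scale (limma adjusted p = 5.10e-07, 2.05e-05 and 0.0196). Between growing hosts 2 of 8 were called, both higher in KO (0.715% of all genes), among them Fcgr2b, the inhibitory IgG receptor (3.03 ± 0.48, adjusted p = 0.00957). Between dormant and growing KO 4 of 8 were higher and 0 lower (8.31% and 9.48% of all genes). Of those 4, 1 had passed the filter only through 1 group. Fcgrt, the neonatal Fc receptor that many cell types carry, overlapped between groups at 19.6 to 52.9 TPM. Pigr, which carries IgA across epithelium, reached no more than 0.13 TPM in any library.

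Markers of other host cells moved with the immunoglobulin RNA. Summed T cell markers stood at 206 to 239 TPM in dormant KO against 6.64 to 34.8 TPM in all other libraries, with 14 of 15 at 1 TPM or more in dormant KO and 0 of 15 at 0 throughout. Alveolar type 2 markers stood at 40207 to 42496 TPM in dormant KO, 465 to 472 TPM in growing KO, 55.9 to 97.6 TPM in growing WT and 77.5 to 141 TPM in dormant WT, led by Sftpc. Fibroblast markers stood at 1850 to 2085 TPM in dormant KO, 342 to 406 TPM in growing KO, 67.2 to 106 TPM in growing WT and 109 to 192 TPM in dormant WT. The alveolar type 2 and fibroblast sums thus had dormant KO first and growing KO second, as the immunoglobulin sums had, whereas the T cell sums of growing KO (13.3 to 34.8 TPM) overlapped those of dormant WT (12.9 to 34.6 TPM). Neutrophil markers stood at 4139 to 4477 TPM in dormant KO, 348 to 929 TPM in dormant WT, 125 to 146 TPM in growing KO and 65.4 to 89.0 TPM in growing WT. Endothelial markers stood at 957 to 994 TPM in dormant KO, with 123 TPM or less in all other libraries, and erythroid markers at 50865 to 56280 TPM in dormant KO, with 6206 to 13031 TPM in the others. Macrophage markers did not follow this order, at 670 to 869 TPM in dormant KO, 708 to 978 TPM in dormant WT and 112 TPM or less in growing libraries. Spp1 and Akr1c18, abundant transcripts of the tumour line taken from earlier results of these data, together stood at 1249 to 1520 TPM in dormant KO, with 30289 to 42531 TPM in the other 9 libraries. Of 6 epithelial genes listed for the mammary line, Krt8 and Krt18 were above 50 TPM in every library, and Epcam and Cdh1 stayed at 5.34 TPM or less. Whether tumour cells or lung epithelium gave the RNA of these 6 genes was not tested. Between dormant hosts Krt19 (8.03), Krt7 (5.35) and Epcam (1.68) were called higher in KO and Krt8 lower (-1.62), on the log2(TPM + 1) scale. Their limma adjusted p were 2.03e-05, 2.28e-05, 0.0402 and 0.00541, while Krt18 and Cdh1 were not called. Of these 4 calls, 2 were of genes that passed the filter only through 1 group, so the calls are a description. The part of these cell types in the immunoglobulin levels was not tested.

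The libraries differed in ways that bear on these levels. Each column sums to 1000000 TPM, and between 11325 and 15315 genes were above 0, fewest in dormant WT. Pearson's r between libraries of a group over the tested genes, which are not independent, was 0.67 to 0.72 in dormant WT, 0.87 to 0.88 in dormant KO, 0.95 in growing WT and 0.91 to 0.92 in growing KO. The dormant WT group thus had the widest spread over all genes and, among immunoglobulin sums, for the total and kappa, but not for the heavy chain or lambda. Tgfbr2 was deleted in host myeloid cells and not in the tumour cells sorted, so its level in these libraries checks no label.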

How the data were processed

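RNA was measured in 12 libraries, 3 for each of 4 groups, named by state and host from the sample titles. The authors used cutadapt 1.18 to trim, STAR 2.5.2b to align to mm10, and RSEM 1.3.3 to estimate transcript levels, per their processing notes. The study's methods name other versions of cutadapt and RSEM, and GENCODE M12 as the annotation. They deposited TPM, in which transcript length and library total are divided out, so depth is unknown and precision rests on 3 libraries per group. The authors' methods describe Smart-seq2 libraries and the labels a TruSeq mRNA kit, and strand use is not given in the sources used here. Another 30 columns of the table match no labelled sample and were left unused, among them columns named for WT hosts in batch 2. Intervals on counts could not be computed.

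Here TPM were used as deposited. Members were taken by symbol and level, and J or D segments were matched but none reached 1 TPM. log2(TPM + 1) was fitted with limma 3.58.1 in R 4.3.3 (4 group means over all 12 libraries, eBayes with a trend, two-sided, Benjamini-Hochberg over 13002 genes) in 6 contrasts, after a test on simulated data. DESeq2, the authors' tool, needs counts and was not run. Members and lists were chosen with earlier results of these data known. Named members are all constant segments, the 5 V segments of highest mean TPM per locus, up to 5 higher and 5 lower called members per contrast with groups that do not overlap, and those at the threshold. Members outside that rule (Igkv10-96, Igkv4-58 and its library's others, Ighv5-12, Ighv5-9, Ighv5-10 and the relatives of listed segments) were named after their values were seen. There were 16 lists with 167 of 168 genes in the table, of which the mammary epithelial list was added after the data were seen. The values of 2 listed genes are not reported here. V exons were read from GENCODE M21 transcripts on GRCm38 and aligned with Biopython 1.88, and all 94 segments matched by gene ID. A search for the octamer motif was planned but not made, since the promoter table used here holds 0 of the 94. Also tried were added values of 0.1 or 5 before the log, a 5 TPM filter or none, median-ratio and quantile scaling, a replicate block, array weights, a fit of only the groups compared, and each library left out.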

Additional observations from a re-analysis of the deposited data

Results flagged for a closer look

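By the interaction term of the limma fit, the difference between dormant and growing libraries was itself different between KO and WT hosts for 21 of the 38 segments tested. Of all genes tested, 6.18% were called on the higher side of this term and 3.91% on the lower. For 13 segments the difference between states was larger in KO hosts, in log2(TPM + 1). The light chain segments on this side were Igkv6-15 (6.87, adjusted p = 0.000116), Igkv9-120 (6.26, adjusted p = 0.00017), Iglc3 (5.90, adjusted p = 0.000256), Igkv6-32 (5.67, adjusted p = 0.000399), Igkv1-135 (5.04), Igkv3-12 (4.84, adjusted p = 0.0252), Iglc2 (4.27, adjusted p = 0.0144), Iglv3 (4.19), Igkv4-72 (4.13, adjusted p = 0.0272), Igkv1-88 (3.61) and Igkv12-46 (3.53, adjusted p = 0.00432). The heavy chain segments on this side were Ighg1 (5.69) and Ighd (4.01, adjusted p = 0.0132). For 8 it was on the lower side. These were Igkv12-44 (-5.93, adjusted p = 0.000266), Ighv11-2 (-4.67, adjusted p = 0.0474), Igkv14-126 (-4.53, adjusted p = 0.00327), Ighg2c (-3.42), Igkv3-2 (-3.07), Igkv9-124 (-3.05, adjusted p = 0.0251), Igkv15-103 (-2.75, adjusted p = 0.0359) and Ighv5-9 (-2.32). Of these 21 segments, 18 would not have passed the filter on low values without 1 of the KO groups, so their calls and the holding of those calls were in large part fixed by that and are a description. No p-value is given for the 7 that reached 1 TPM in 1 KO group alone (Ighg1, Ighg2c, Igkv1-135, Igkv1-88, Iglv3, Igkv3-2 and Ighv5-9). Of the 21 calls, 16 held when each of the 12 libraries was left out in turn, and Ighv11-2, Igkv15-103, Igkv3-12, Igkv4-72 and Igkv9-124 lost theirs in at least 1 such fit. With a replicate block 14 segments were called, and Ighd, Iglc2 and Ighv5-9 were among those lost; with array weights 15 were called. Host and library batch are the same split, so this term cannot be told apart from a difference between batches in the effect of state. Many of these segments are listed at 0 in both WT groups, where the term is the KO difference alone.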

How the results depend on the processing

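No called direction turned under the alternatives run. Of the 104 calls of single segments, 85 held with each library of the contrast left out and 63 under every alternative that could be run, though most of these segments passed the filter through 1 group only. Replicate numbers did not pair the libraries (r of same-numbered deviations from -0.01 to 0.02). With a replicate block, which cannot be estimated for contrasts between hosts, 1 segment was called between dormant and growing WT, 415 genes were called in that contrast (977 without it) and 670 in the interaction (1312). Segments called between dormant and growing WT were 3, and 1 with a pseudocount of 5 or 0 with array weights, and array weights gave 15 in place of 9 between growing hosts. Genes called between dormant and growing WT were 637 with no filter and 310 with array weights. Array weights gave 1418 genes between dormant hosts (2898 as reported), 516 between growing hosts (127) and 3586 between states in KO hosts (2313), and fits of only the groups compared gave 1680 and 308 between dormant and between growing hosts. The causes were not tested.

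With each library left out, genes called ranged from 2487 to 3639 between dormant hosts, 73 to 89 between growing hosts, 452 to 1930 between states in WT hosts (the highest without dormant WT library 1), 1757 to 2097 in KO hosts, 1848 to 3359 over both and 870 to 1950 in the interaction, and segments from 21 to 24, 7 to 9, 1 to 3 (1 without growing WT library 3), 23 to 25, 20 to 22 and 16 to 23.

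Median-ratio scaling moved the median of all genes between dormant hosts from 0.17 to 0.52 and between states in KO hosts from -0.32 to 0.09. It set the mean sums in dormant KO at 2193 (kappa), 534 (lambda) and 2928 TPM (all), in growing WT at 39.2 (kappa) and 71.8 TPM (all) and in growing KO at 661 TPM (all). With the most abundant member left aside, heavy chain sums were 94.1 and 51.3 TPM in dormant and growing KO, kappa sums 654, 18.8 and 293 TPM in dormant KO, growing WT and growing KO, lambda sums 206 and 56 TPM in dormant and growing KO, and the whole 1202, 55.5 and 477 TPM in dormant KO, growing WT and growing KO. A minimum of 5 TPM left a mean of 24.7 segments in dormant KO, 5 in growing WT and 18.3 in growing KO, and one of 10 TPM left 21.7 in dormant KO, 3 in dormant WT and, for growing libraries, 2 (WT) and 13 (KO). Without library 2 the dormant WT sum of all segments fell to 67.9 TPM, and without library 1 it was 168 TPM.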
